A study of Homo sapiens with 4 samples.

Results

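The genes described here encode 10 chemokines of the senescence secretome, the mix of proteins that senescent cells release. They are CXCL1, CXCL2, CXCL3, CXCL5, CXCL6, CXCL8, CXCL16, CCL2, CCL5 and CCL20, chosen by symbol from 19732 gene symbols. All 10 were in the table and 9 of them reached 1 FPKM (fragments divided by transcript length and library size, so that levels of genes of different length can be compared) in at least 1 library. The series, on RBM4 and senescence, describes 4 samples of human lung cancer cells. The samples analysed are A549, a lung adenocarcinoma line, as a control and with RBM4, an RNA-binding regulator of splicing and translation, knocked down. Each group is 1 library, and the cells were grown in medium with serum. The 2 H1299 samples are not analysed here.

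Chemokines are small secreted proteins that attract white blood cells by engaging G protein-coupled receptors. The CXC chemokines CXCL1, CXCL2, CXCL3, CXCL5, CXCL6 and CXCL8 act on CXCR2, CXCL6 and CXCL8 also on CXCR1, and they recruit neutrophils. CCL2 attracts monocytes through CCR2, CCL5 attracts T cells and monocytes, CCL20 attracts lymphocytes and dendritic cells through CCR6, and CXCL16 is a membrane-anchored ligand of CXCR6. In senescent cells and in inflamed airway epithelium, transcription of several of them is driven by NF-kB, C/EBP and AP-1 factors, and their short-lived messages carry AU-rich elements.

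The 6 neutrophil chemokine genes lie in 1 cluster on chromosome 4, and the sequence before their start sites is shown because these genes share a motif there although their levels, given below, differ. RefSeq promoter windows of 300 bases, on GRCh38.p14, were matched by symbol for 7 of the 10 genes. CCL2, CCL5 and CXCL16 had no entry. For each gene the longest NF-kB match is printed, and of equally long ones the one farthest from the start. It is the letters GGAATTTCC in CXCL8 and the NF-kB consensus in the others. Each is shown with 30 bases in all, 5′ to 3′ on the gene's strand, and capitals mark the match.
CXCL8 (chr4:73740468-73740497, plus strand): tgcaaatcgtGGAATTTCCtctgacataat
CXCL1 (chr4:73869304-73869333, plus strand): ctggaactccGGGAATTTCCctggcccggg
CXCL2 (chr4:74099254-74099283, minus strand): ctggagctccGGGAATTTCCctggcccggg
CXCL3 (chr4:74038749-74038778, minus strand): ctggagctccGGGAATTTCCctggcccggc
CXCL5 (chr4:73998749-73998778, minus strand): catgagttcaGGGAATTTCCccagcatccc
CXCL6 (chr4:73836578-73836607, plus strand): cctgagttcaGGGAATTTCCccagcatccc
CCL20 (chr2:227813753-227813782, plus strand): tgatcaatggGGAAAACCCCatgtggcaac

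All 6 neutrophil chemokine genes held the letters GGAATTTCC, searched on both strands, and CCL20 did not. Of all 35116 RefSeq promoter windows of the same length, 0.461% held them. The letters searched are those of the match printed for CXCL8, and several of the 6 windows are near copies. They are therefore not 6 separate hits to set against that share. The match began 91 bases before the RefSeq start in CXCL8, 90 in CXCL5, 89 in CXCL6, 78 in CXCL1 and CXCL3, and 77 in CXCL2. The NF-kB consensus, which overlaps those letters, was present in CCL20 (on the opposite strand to the one printed) and in each neutrophil chemokine gene other than CXCL8, against 11.3% of all windows. The printed windows of CXCL1 and CXCL2 were the same at 29 of 30 bases, as were those of CXCL2 and CXCL3 and those of CXCL5 and CXCL6.

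CXCL8 also held an AP-1 match, the letters TGANTCA on both strands, in the window before its start, and was the only one of the 7 genes that did, against 7.71% of all windows. With only 7 windows, 1 match cannot be told apart from that share. The letters TATAAA were searched too, and of the 7 genes CXCL8 and CCL20 held them, against 11.5% of all windows. Longer stretches are printed for CXCL8, the gene past 2-fold below, and for CXCL1, a gene of the same cluster that differed little. Capitals mark the NF-kB matches and, in CXCL8, the AP-1 match, which comes first. Both stretches end before the first start annotated in GENCODE 29. A match describes letters in these windows, not binding, and the part of any match in the levels was not tested.
CXCL8 (chr4:73740319-73740505, plus strand): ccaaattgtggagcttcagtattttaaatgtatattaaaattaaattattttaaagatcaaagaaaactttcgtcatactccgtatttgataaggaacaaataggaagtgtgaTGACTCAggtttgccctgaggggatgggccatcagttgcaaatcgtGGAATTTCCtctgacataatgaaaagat
CXCL1 (chr4:73869143-73869392, plus strand): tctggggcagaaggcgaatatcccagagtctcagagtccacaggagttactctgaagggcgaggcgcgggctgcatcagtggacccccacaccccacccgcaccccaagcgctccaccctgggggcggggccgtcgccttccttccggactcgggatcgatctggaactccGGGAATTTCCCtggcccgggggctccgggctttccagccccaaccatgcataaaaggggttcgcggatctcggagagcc

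The libraries compare as follows, and no difference below has a replicate check. RBM4 was at 59.4 FPKM in control cells and 30.6 FPKM after knockdown, 51.5% of the control. The columns were assigned by their names alone, and every direction rests on that. Total FPKM were 671529 and 622366, and mitochondrial transcripts held 18.6% and 21.7% of them. Of the 7 marker genes listed for lung cancer lines (6 epithelial genes and the mesenchymal filament gene VIM), all were measured, from the keratin genes KRT7, KRT8 and KRT18 at 888 FPKM or more to EPCAM and CDH1 at 7.70 FPKM or less. Since these are bulk samples, fewer cells making a transcript and less transcript per cell cannot be told apart.

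Among the 10 chemokine genes, CXCL8 was higher by at least 2-fold in the knockdown library, CCL2 was close to 2-fold higher, and the other neutrophil chemokine genes differed little. Of the 9 measured genes, 1 was higher and 0 were lower by at least 2-fold on the scale of log2(FPKM + 1). Over all 12230 genes at 1 FPKM or more in either library, 7.21% differed by at least 2-fold, 4.96% higher and 2.25% lower. The median log2 difference was 0.17 over the 9 chemokine genes and -0.04 over all genes, and 6 of the 9 lay above 0 against 46.6% of all genes. CCL5 entered these figures only through its level after knockdown. Summed over the 10 genes the level was 151.3 FPKM in control cells and 236.9 FPKM after knockdown. CXCL8 and CCL2 made up 91.2% of that increase of 85.6 FPKM, and the other 8 genes summed to 102.8 and 110.3 FPKM.

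**Figure D1:**
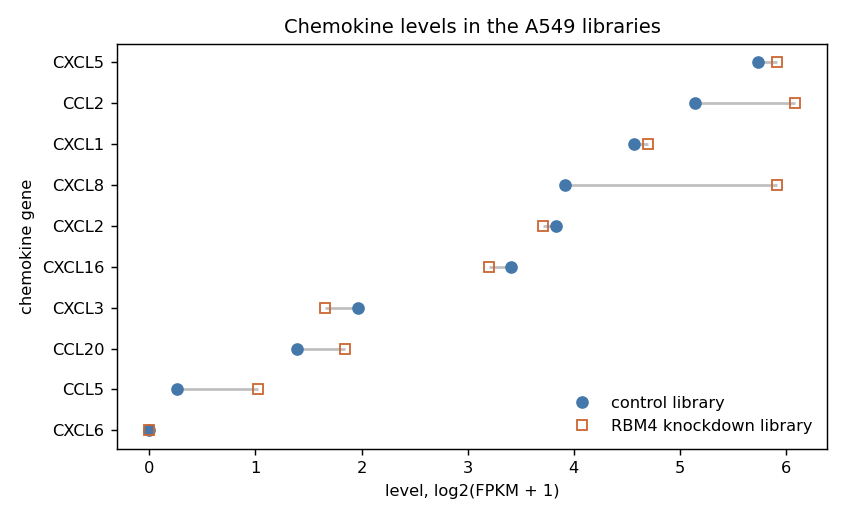
Level of each chemokine gene as log2(FPKM + 1) on the x axis, with genes on the y axis in the order of their control level, circles for the control and open squares for the knockdown library (1 library each). The widest gaps are those of CXCL8 and CCL2, and CXCL6 is listed at 0 in both libraries.

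CXCL8 encodes interleukin 8, the best known neutrophil attractant and a defining product of senescent cells. CXCL8 (ENSG00000169429, chromosome 4, 73740506 to 73743716, plus strand of hg38) measured 14.1 FPKM in control cells and 59.6 FPKM after knockdown. This was 4.23 times the control level and a log2 difference of 2.01, and 83 of the 12230 genes (0.679%) had a higher one. It was the fourth most abundant of the 10 genes in the control and the second in the knockdown library. Both listed CXCL8 transcripts were higher. The longer one, ENST00000307407, had 13.2 and 55.6 FPKM and held 93.8% and 93.4% of the gene's FPKM, and ENST00000401931 had 0.87 and 3.96 FPKM. No 50-base stretch of the longer transcript occurs in a transcript of another gene in GENCODE 29.

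CXCL1, CXCL2 and CXCL3, close relatives that signal through the same neutrophil receptor, showed no such difference. CXCL1 (ENSG00000163739, chromosome 4, 73869393 to 73871242, plus strand) had 22.8 FPKM in control cells and 24.96 FPKM after knockdown, a log2 difference of 0.13. CXCL2 (ENSG00000081041, chromosome 4, 74097035 to 74099293, minus strand) had 13.2 and 12.1 FPKM (log2 difference -0.12, and 0.04 with mitochondrial genes left out and the libraries rescaled to the same total). CXCL3 (ENSG00000163734, chromosome 4, 74036589 to 74038807, minus strand) was the scarcest of the 3, at 2.92 and 2.14 FPKM (log2 difference -0.32). In the control CXCL2 stood beside CXCL8 in level, and in the knockdown library CXCL8 was far above it. Some stretches of 50 bases are shared among the 3: 5.73% of those of the CXCL1 transcript, 9.24% of CXCL2 and 5.26% of CXCL3. How the authors' tools divided such reads is not known. The sum of the 3 genes was 38.9 FPKM in control cells and 39.2 FPKM after knockdown, a log2 difference of 0.01. That sum was added after the data were seen, and since the transcripts differ in length it too depends on how shared reads were assigned.

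CXCL5, a neutrophil attractant made by epithelial cells, was the most abundant chemokine gene of the control. CXCL5 (ENSG00000163735, chromosome 4, 73995642 to 73998779, minus strand) had 52.4 FPKM in control cells and 59.3 FPKM after knockdown, a log2 difference of 0.17. It held 34.6% of the summed chemokine level in control cells and 25.02% after knockdown, while CXCL8 went from 9.30% to 25.1%. CXCL6 (ENSG00000124875, chromosome 4, 73836497 to 73849064, plus strand), the nearest relative of CXCL5 in the printed promoter windows, was listed at 0 in both libraries for both of its transcripts. No difference is given for it.

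Levels along the cluster did not follow genome order. From CXCL8 to CXCL2 the cluster spans 358.8 kb and holds 9 protein-coding genes, 6 of them described here. The other 3 are the platelet chemokine genes PF4V1, PF4 and PPBP. PF4V1, next to CXCL6, was listed at 0 in both libraries, PF4 had 0.58 and 1.65 FPKM, and PPBP had 0.11 FPKM in the control and was listed at 0 in the knockdown library. CXCL1 and CXCL5, far more abundant, lay on either side of PF4 and PPBP.

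**Figure D2:**
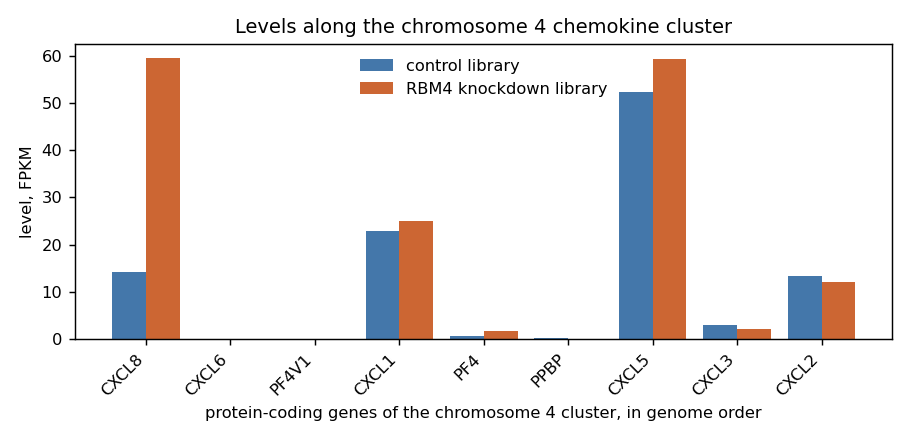
Level in FPKM (y axis, from 0) of the 9 protein-coding genes of the chromosome 4 cluster in genome order (x axis), blue bars for the control and orange bars for the knockdown library (1 library each, so no error bars). Only CXCL8, at 14.1 and 59.6 FPKM, shows a wide gap between its bars, and 2 of the 9 genes are listed at 0 in both libraries.

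CCL2, the monocyte attractant also called MCP-1, had the second largest log2 difference of the 10 genes on the reported scale, with its pseudocount of 1. CCL2 (ENSG00000108691, chromosome 17, 34255218 to 34257203, plus strand) had 34.4 FPKM in control cells and 67.01 FPKM after knockdown, 1.95 times the control. Its log2 difference of 0.94 missed 2-fold, and 5.62% of all genes lay higher. It passed 2-fold when the libraries were rescaled to the same total (log2 difference 1.05) and when mitochondrial genes were left out as well (1.10). Of its 2 listed transcripts, ENST00000225831 held 97.8% and 97.1% of the FPKM, with 33.6 and 65.1 FPKM, and the shorter ENST00000580907 had 0.75 and 1.96 FPKM. CCL2 stood second to CXCL5 among the 10 genes in the control and was the most abundant of them in the knockdown library.

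CCL20 and CCL5, attractants of lymphocytes, were scarce. CCL20 (ENSG00000115009, chromosome 2, 227805739 to 227817564, plus strand) had 1.62 FPKM in control cells and 2.60 FPKM after knockdown, a log2 difference of 0.46. Both CCL20 transcripts were higher, ENST00000358813 at 1.06 and 1.62 FPKM and ENST00000409189 at 0.56 and 0.97 FPKM. CCL5 (ENSG00000271503, chromosome 17, 35871491 to 35880793, minus strand) had 0.20 and 1.03 FPKM, a log2 difference of 0.76, and passed the minimum of 1 FPKM only through the knockdown library. With a pseudocount of 0.1 FPKM that difference was 1.90, past 2-fold. The CCL5 level sat on different transcripts in the libraries: ENST00000605140 had 0.20 FPKM in the control and was listed at 0 in the knockdown library, where ENST00000603197 had 0.94 FPKM. Of the 50-base stretches of ENST00000603197, 15.96% also occur in transcripts of other genes, so the CCL5 values are uncertain.

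CXCL16, which attracts T cells and also serves as a scavenger receptor for oxidised lipids, was slightly lower. CXCL16 (ENSG00000161921, chromosome 17, 4733526 to 4739922, minus strand) had 9.65 FPKM in control cells and 8.20 FPKM after knockdown, a log2 difference of -0.21. Its main transcript, ENST00000293778, had 7.02 and 6.62 FPKM, and ENST00000574412 had 2.27 and 1.58 FPKM. ENST00000573123 had 0.37 FPKM in the control and was listed at 0 in the knockdown library. CXCL16 exons overlap those of MED11 on the opposite strand, and since the counting is not stated to use strand its level is uncertain.

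In order of level, the control ran CXCL5, CCL2, CXCL1, CXCL8, CXCL2, CXCL16, CXCL3, CCL20 and CCL5, with CXCL6 at 0. In the knockdown library the order was CCL2, CXCL8, CXCL5, CXCL1, CXCL2, CXCL16, CCL20, CXCL3 and CCL5. With 1 library each there is no spread to set such neighbours apart as CXCL8 and CXCL2 in the control (14.1 and 13.2 FPKM) or CXCL8 and CXCL5 in the knockdown library (59.6 and 59.3 FPKM).

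**Figure D3:**
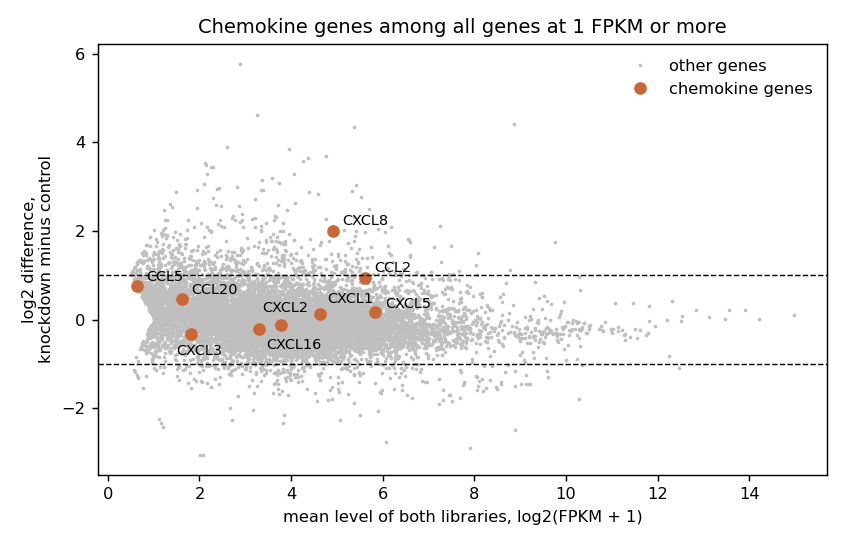
Log2 difference (knockdown minus control, y axis) against the mean level of both libraries (log2(FPKM + 1), x axis) for the genes at 1 FPKM or more, with the 9 measured chemokine genes in orange and dashed lines at 2-fold. CXCL8 lies above the upper line, CCL2 just under it at 0.94, and the remaining 7 lie between -0.32 and 0.76.

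The 5 genes whose levels lay nearest to those of CXCL8, by Euclidean distance in log2(FPKM + 1) over the 2 libraries, were ITGA2, PLAUR, SPOCK1, C15orf48 and NT5E. ITGA2, a collagen receptor subunit, was nearest at a distance of 0.01, with 14.1 FPKM in control cells and 59.1 FPKM after knockdown. PLAUR, the urokinase receptor gene, followed at 0.07, with 13.5 and 61.1 FPKM. SPOCK1, a matrix proteoglycan gene, had 14.5 and 51.8 FPKM, C15orf48 had 11.3 and 58.1 FPKM, and NT5E, the ecto-nucleotidase gene, had 16.7 and 71.1 FPKM. With 2 libraries this likeness says only that the levels were close.

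Other chemokine genes were nearly all below 1 FPKM. Of 13 other CXC and CX3C ligand genes, 1 was measured, PF4 (log2 difference 0.75), and 9 were listed at 0 in both libraries. PF4 passed the minimum of 1 FPKM only through the knockdown library. Of 23 other CC ligand genes, 1 was measured and 20 were listed at 0 in both. The measured one was CCL26, an eosinophil attractant, with 2.43 FPKM in control cells and 5.81 FPKM after knockdown (log2 difference 0.99, and 1.07 after rescaling to the same total).

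Receptors for these ligands were scarce in the cells themselves. Of 23 receptor and scavenger genes, 1 reached 1 FPKM: ACKR3, an atypical receptor that removes CXCL12, with 2.95 and 6.21 FPKM (log2 difference 0.87). The neutrophil chemokine receptors CXCR1 and CXCR2, the CXCL16 receptor CXCR6 and the CCL2 receptor CCR2 were listed at 0 in both libraries. CCR6, the CCL20 receptor, had 0.08 FPKM in the control and was listed at 0 in the knockdown library. The highest value among the 22 genes below 1 FPKM was 0.68 FPKM.

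Cytokines that induce these chemokines were near 0, while some receptors of the list were present and others were below 1 FPKM. TNFRSF1A had 166 FPKM in control cells and 177 FPKM after knockdown. TNFRSF1B, TLR2, TLR3 and TLR4 were below 1 FPKM in both libraries. Of 18 listed genes, 9 were measured, with a median log2 difference of 0.09, 1 higher by at least 2-fold and 0 lower. Over all genes, 4.96% were higher and 2.25% lower, so a count of 1 in so short a list says little of the list. IL1A was listed at 0 in the control and had 0.36 FPKM in the knockdown library, IL1B had 0.11 and 0.30 FPKM, and TNF had 0.07 and 0.22 FPKM. The interleukin 1 receptor gene IL1R1 had 14.2 and 15.6 FPKM (0.13). The gene past 2-fold was IRAK2, a kinase relay between that receptor and NF-kB, with 10.3 FPKM in control cells and 38.6 FPKM after knockdown (1.81). Its relative IRAK1 was the lowest of the list, at 70.1 and 55.9 FPKM (-0.32).

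All 20 genes for transcription factors of chemokine promoters and their inhibitors were measured, and 2 of them, the AP-1 subunit genes JUNB and JUN, were higher by at least 2-fold. JUNB had 52.1 FPKM in control cells and 177 FPKM after knockdown (log2 difference 1.75), and JUN had 12.96 and 33.2 FPKM (1.29). Other AP-1 family genes of the list stayed within 2-fold: FOS had 27.8 and 34.1 FPKM (0.29), FOSL1 had 27.6 and 29.1 FPKM (0.07), and ATF3 had 3.39 and 5.66 FPKM (0.60). The list's median was 0.18 and 0 genes were lower by 2-fold, against 4.96% higher and 2.25% lower over all genes. A count of 2 in a list of 20 says little of the list. The NF-kB subunit genes differed little, NFKB1 with 12.8 and 14.3 FPKM (0.14) and RELA with 32.7 and 30.9 FPKM (-0.08). None of 3 feedback genes of NF-kB passed 2-fold: the inhibitor NFKBIA had 83.7 and 71.8 FPKM (-0.22), NFKBIZ had 11.4 and 17.1 FPKM (0.55), and TNFAIP3 had 6.88 and 8.54 FPKM (0.28). CEBPB, a factor of the senescence secretome, had 70.65 and 82.4 FPKM (0.22), and CEBPD was the lowest of the list at 12.9 and 6.44 FPKM (-0.90). For 7 of the 20 genes, RELA, TNFAIP3 and FOSL1 among them, the sign of the difference changed under at least 1 alternative setting.

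Factors that set the lifetime of AU-rich messages differed by less than 2-fold with 1 exception. Of 13 measured genes, 1 was higher by at least 2-fold and 0 were lower (4.96% and 2.25% over all genes), and the median was 0.18. ARID5A, which stabilises some cytokine messages, had 2.19 and 6.61 FPKM (1.25). The decay factor genes of the ZFP36 family lay on both sides of 0, none past 2-fold: ZFP36 had 24.8 and 31.2 FPKM (0.32), ZFP36L1 had 131.9 and 196.9 FPKM (0.57), and ZFP36L2 had 16.03 and 9.28 FPKM (-0.73). Another decay factor gene, KHSRP, had 117.0 and 88.2 FPKM (-0.40). The stabilising factor gene ELAVL1 had 45.1 and 38.4 FPKM (-0.23). HNRNPD, not classed here as a decay or a stabilising factor gene, was the lowest of the list at 205.3 and 117.2 FPKM (-0.80).

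Proteases that release or trim chemokines, and their inhibitors, made up the next list. Of 10 listed genes, 8 were measured, 4 were higher by at least 2-fold and 0 lower, and the median was 1.02 (6 were higher by 2-fold with a pseudocount of 0.1 FPKM, and 3 with the highest transcript per symbol, where the inhibitor gene TIMP1 moved from 1.07 to 0.82). MMP9, MMP14 and TIMP3 passed the filter only through the knockdown library, so they could only lie above 0. MMP9 is 1 of the 4, while MMP2, TIMP1 and ANPEP reached 1 FPKM in both libraries. With so few genes, neither the count nor the median says much of the list. Over all genes, 4.96% were higher and 2.25% lower by at least 2-fold. The aminopeptidase gene ANPEP was highest, at 2.79 and 27.6 FPKM (2.91). Next came MMP2, at 4.35 and 31.2 FPKM (2.59), past 2-fold in each of its 8 values over the settings. The 2 sheddases of CXCL16 differed by less: ADAM10 was the lowest of the list at 106.5 and 112.1 FPKM (0.07, with a change of sign under at least 1 setting), and ADAM17 had 27.9 and 39.7 FPKM (0.50).

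Carriers that hold chemokines at the cell surface were compared last. Of 14 genes for heparan sulfate proteoglycans and their enzymes, 10 were measured, with a median of 0.37. By at least 2-fold, 1 was higher and 0 were lower (4.96% and 2.25% over all genes). SDC4, a syndecan gene, was highest at 19.8 FPKM in control cells and 47.2 FPKM after knockdown (1.21). The sulfotransferase gene HS6ST1 was lowest at 7.41 and 3.84 FPKM (-0.80).

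**Figure D4:**
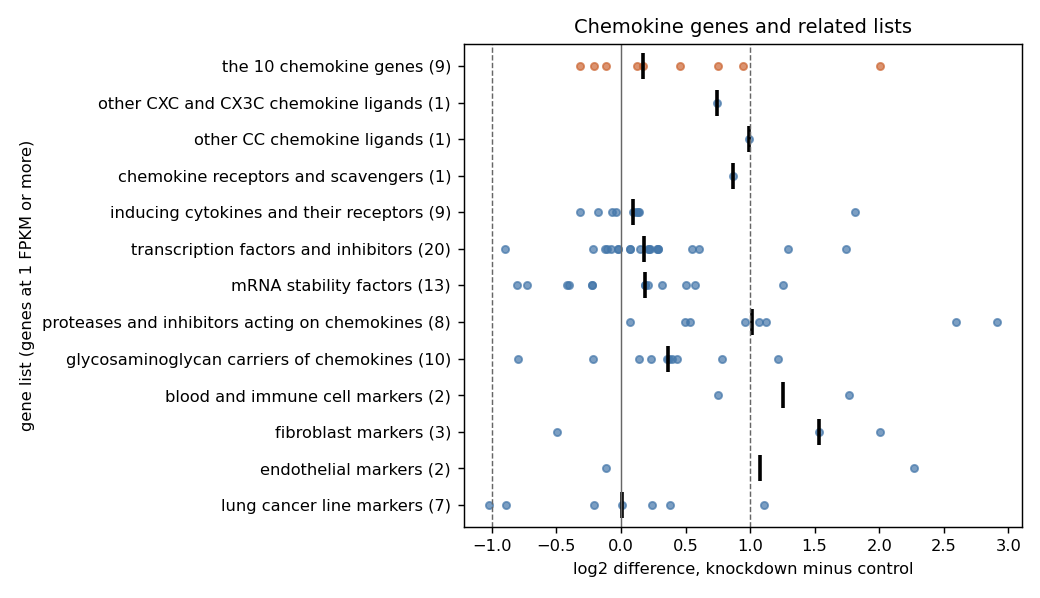
Log2 difference (knockdown minus control, x axis) of each gene at 1 FPKM or more in the 10 chemokine genes (orange) and in the 12 related or marker lists (blue), 1 row per list with the number of measured genes in brackets, a black tick at the median and dashed lines at 2-fold. CXCL8 stands apart from the other chemokine genes at 2.01, and most factors of chemokine transcription lie within 2-fold.

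Markers of cells that make chemokines in tissue were mostly below 1 FPKM, but a few differed alongside CXCL8 and CCL2. Of 16 blood and immune markers, 2 were measured and 11 were listed at 0 in both libraries, among them CD3E, LYZ and CSF3R, and PTPRC, the pan-leukocyte marker, had 0.00 and 0.05 FPKM. CD68, a lysosomal protein of macrophages, had 6.90 FPKM and then 25.8 FPKM (1.76), CD14 had 2.16 and then 4.32 FPKM (0.75), and the whole list summed to 9.62 and 31.1 FPKM. Of 11 fibroblast markers, 3 were measured, THY1 (2.003), COL1A1 (1.54) and TWIST2 (-0.50), and the list summed to 22.7 and 46.1 FPKM, with DCN and POSTN at 0 in both. Of 8 endothelial markers, ESAM (2.27) and EGFL7 (-0.12) were measured, and the list summed to 30.8 and 44.3 FPKM, with VWF, KDR and CLDN5 at 0 in both. Among the 7 lung cancer line markers, VIM included (650 and 769 FPKM), KRT19 was highest (1.11) and KRT18 lowest (-1.02), and the list summed to 6070 and 5089 FPKM. The part of these markers in the chemokine differences was not tested.

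Under the alternative settings CXCL8 stayed past 2-fold, between 1.995 and 2.16 on the log2 scale over 8 values, the reported one included. CXCL1 and CXCL5 stayed above 0 and within 2-fold in each of theirs, and CXCL3 and CXCL16 stayed below 0 and within 2-fold.

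**Figure D5:**
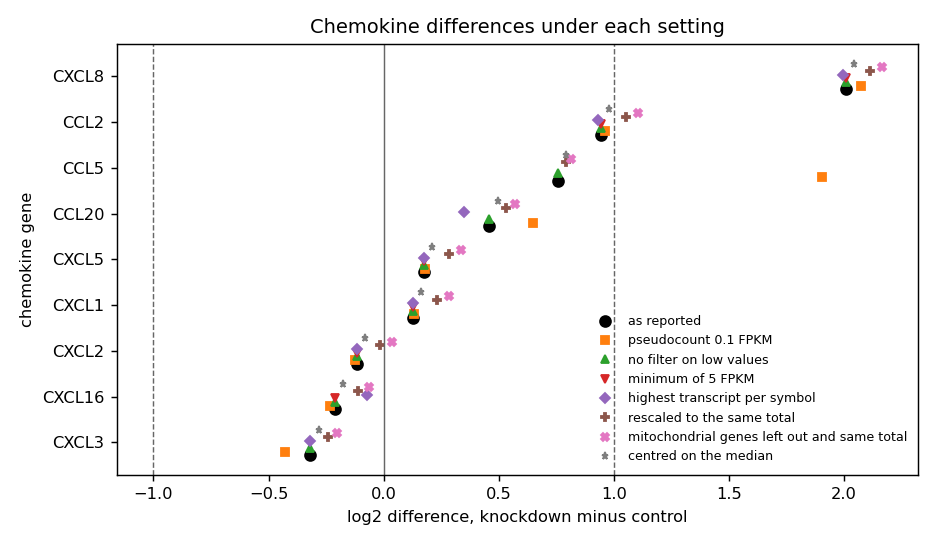
Log2 difference (knockdown minus control, x axis) of each of the 9 measured chemokine genes (y axis), as reported (black circles) and under each of 7 alternative settings (other symbols), with dashed lines at 2-fold and a solid line at 0. CXCL8 lies past 2-fold under every setting shown, CCL2 crosses it under both rescaled settings, and CCL5 crosses it with the smaller pseudocount.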

How the data were processed

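RNA was sequenced from A549 and H1299 cells, each as a control and an RBM4 knockdown sample. The deposited values are FPKM per protein-coding transcript, and CASAVA 1.8.2, TopHat and Cufflinks with hg38 are named per the submitters' processing notes. How each was used, the gene annotation, strand handling and read filters are not given in the sources used here. Read counts were not among the values, so sequencing depth is unknown and values carry no counting interval. The column bearing only the name A549 was read as the control and the column adding a number to it as the knockdown. The 3 value columns of the H1299 table matched no label and were not used. FPKM were summed per symbol (Python 3.11.15, pandas 2.3.3). Genes at 1 FPKM or more in either library were kept, and differences are log2 of knockdown over control FPKM, each plus a pseudocount of 1. With 1 library per group no test was made. The counting of 2-fold genes was tested on simulated data with an assumed spread, which says nothing of the spread between real libraries.

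The chemokine genes and all lists were chosen with earlier results of these data known. Named are the 10 chemokine genes, RBM4, a fixed set of pathway genes, the highest and lowest kept gene of each list, and the 5 genes nearest to the chemokine gene with the largest difference. Other named genes, mainly markers and factors at 2-fold, were chosen after their values were seen. Some genes that this rule or the lists hold are left unnamed. Positions and transcript sequences came from GENCODE 29 on the same build, and promoter sequences from RefSeq on GRCh38.p14. The 7 alternatives concern pseudocount, filter, summing and scaling.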

Additional observations from a re-analysis of the deposited data

How the results depend on the processing

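No paired analysis was possible because each group is 1 library, and for the same reason no replicate could be left out. The 9 measured chemokine genes gave 59 values over the 7 alternatives, of which 55 kept their sign and their side of 2-fold, 3 passed 2-fold (CCL2 under both rescaled settings, CCL5 with the smaller pseudocount) and 1 changed sign (CXCL2). The number of chemokine genes past 2-fold was 2 with a pseudocount of 0.1 FPKM, 2 after rescaling to the same total and 2 with mitochondrial genes left out before that rescaling, against 1 as reported. The share of all kept genes past 2-fold was 11.5%, 7.68% and 8.05% under these settings in turn, against 7.21% as reported. The median of the chemokine genes was 0.18 with the pseudocount of 0.1 FPKM. With no filter, a minimum of 5 FPKM or the highest transcript per symbol it was 0.15 each time. It was 0.28 after rescaling, 0.34 with mitochondrial genes left out before rescaling and 0.21 after centring. Over all genes, 1403 passed 2-fold with a pseudocount of 0.1 FPKM against 882 as reported. As reported 68.8% of these were higher, against 78.6% after rescaling and 82.2% with mitochondrial genes left out before rescaling, and the all-gene median moved to 0.06 and 0.11. A larger count with the smaller pseudocount follows from its construction, since low values are damped less. CCL5, CCL20 and CXCL3 have no value at a minimum of 5 FPKM.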
